A study of Homo sapiens with 12 samples.

Results

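The kidney tubule identity and transport genes form a set of 41 genes, taken by gene symbol from a named list of proximal tubule transporters, brush border enzymes, endocytosis receptors and tubule transcription factors, and all 41 were found among the 58278 genes listed. They were measured by mRNA sequencing in HK2 cells, an immortalized human epithelial line derived from the proximal tubule. The 12 libraries fell into 6 groups of 2, which the series describes as biological replicates of the one line. Untreated cells formed the group Ctrl, and cells stimulated with tumour necrosis factor (TNF-α) at 5 ng/mL for 3 h formed the group TN. The other groups received TNF-α in the same way together with a short-chain fatty acid (SCFA) for 24 h, either before the stimulation (PRTN with propionate at 15 mM, BUTN with butyrate at 3 mM) or after it (TNPR and TNBU, at the same doses). The doses of the 2 SCFAs therefore differed, and SCFA without TNF-α, or TNF-α followed by 24 h without SCFA, was not analysed here, so that effects of time in culture and of SCFA in TNPR and TNBU cannot be told apart.

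The proximal tubule reclaims most of the filtered water, sodium, bicarbonate, phosphate, glucose, amino acids and protein. It does so through apical cotransporters and the megalin and cubilin endocytosis receptors, with peptidases on its brush border and the sodium pump on its basolateral side. Transcription factors of the PAX, LHX and HNF families specify the nephron epithelium during development, and HNF4A is needed for maturation of the proximal tubule.

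Each library held between 27269986 and 33851130 expected counts, and levels are given as CPM, the usual count relative to library size, with sizes scaled by the trimmed mean of M values (TMM), where 3 counts in a library corresponded to 0.0867 to 0.112 CPM. These values are bulk levels, in which fewer cells of a type and less RNA per cell cannot be told apart. The TNF-α label was checked on TNFAIP3, NFKBIA and CXCL8, which rose in TN against Ctrl by 2.15 ± 0.056, 0.72 ± 0.11 and 0.91 ± 0.063 on the log2 scale (± SE, n = 2 libraries per group). Of the 41 members, 35 passed the filter on low counts (a geometric mean of at least 1 expected count over the 12 libraries, with 1 added before and taken off after) and were tested with limma-voom. Positions are those of GRCh38 (GENCODE 44). A gene was called higher or lower at an adjusted p under 0.05 and a fold change above 1.5.

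Several defining markers of a mature proximal tubule were missing or nearly so in untreated HK2 cells, while others were detected. LRP2, which encodes megalin, and HNF4A had 0 counts in both Ctrl and both TN libraries, and SLC22A6, the basolateral organic anion transporter, had 0 counts in all 12 libraries. The phosphate cotransporter SLC34A1 ranged from 0 to 0.0867 CPM over the 12 libraries, at or under the level of 3 counts in each. SLC22A8, SLC47A1, SLC5A1, SLC7A9 and SLC6A19 did not pass the filter and reached at most 0.125 CPM in a library. Other genes of the list were detected in Ctrl, with means of 1.75 CPM for CUBN, 3.45 for SLC5A2, 21.0 for SLC4A4 and 92.4 for DPP4. When levels were divided by merged exon length, GGT1 at 50.4 ± 0.123 CPM per kb, PAX8 at 49.3 ± 0.355 CPM per kb and ATP1B1 at 35.5 ± 0.232 CPM per kb (SD, n = 2) ranked as the 3 highest members. The 23 members with a mean of at least 1 CPM in at least 1 group are given below in every library.

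SCFA groups differed from TN in most of the detected tubule genes, in both directions. In PRTN, 15 of the 35 tested members were called higher and 8 lower than in TN, where 23.9% of all 24342 tested genes were called higher and 16.7% lower. In BUTN the counts were 16 higher and 8 lower, with 23.1% and 14.8% of all tested genes called higher and lower. TNPR had 14 higher and 8 lower members, beside 24.9% and 16.9% of all genes, and TNBU had 14 and 8, beside 25.0% and 16.5%. The share of members called higher was thus 40% to 45.7%, and of members called lower 22.9% in each of the 4 comparisons. The members were chosen with earlier results of these data known, so a share above that of all genes is no test of the set. LRP2, ANPEP, MME and HNF4A were at 0 in TN and passed the filter through the SCFA groups alone or nearly so. Among the other 31 tested members, 32.3% to 38.7% were called higher and 25.8% lower. Their median changes were 0.30 (PRTN), 0.27 (BUTN), 0.17 (TNPR) and 0.33 (TNBU) on the log2 scale. The 4 comparisons share the TN libraries and are not independent of each other.

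The tested members had a median log2 fold change of 0.84 (PRTN), 0.82 (BUTN), 0.58 (TNPR) and 0.38 (TNBU), against 0.086, 0.079, 0.12 and 0.093 over all tested genes. Scaling to library size alone moved the medians of all genes to 0.24, 0.23, 0.29 and 0.29. The split of all calls (higher and lower) then moved from 5824 and 4057 to 6785 and 3127 (PRTN), from 5620 and 3613 to 6579 and 2656 (BUTN), from 6067 and 4117 to 7232 and 3132 (TNPR), and from 6094 and 4027 to 7329 and 2849 (TNBU). No member called in the TMM fit lost its call under that scaling. The summed level of the 41 members moved the other way from the median. It was 1467 to 1532 CPM in TN, against 1132 to 1149 (PRTN), 1122 to 1129 (BUTN), 1074 to 1080 (TNPR) and 1026 to 1042 (TNBU). Such a sum is carried by the abundant members, of which PAX8 and GGT1 fell, ATP1B1 was not called and CA2 rose.

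The same 14 members were called higher in all 4 comparisons: SLC34A3, LRP2, CUBN, AMN, AQP1, AQP3, ANPEP, MME, ENPEP, AGT, PAX2, HNF4A, CA2 and CA12. The 8 called lower in all 4 were SLC20A1, SLC22A4, SLC4A4, SLC17A1, SLC17A3, GGT1, PAX8 and LHX1. The 4 comparisons share the TN libraries, where LRP2, ANPEP, MME and HNF4A had 0 counts. The share of all tested genes called in all 4 was not computed, so these counts have no background beside them.

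**Figure D1:**
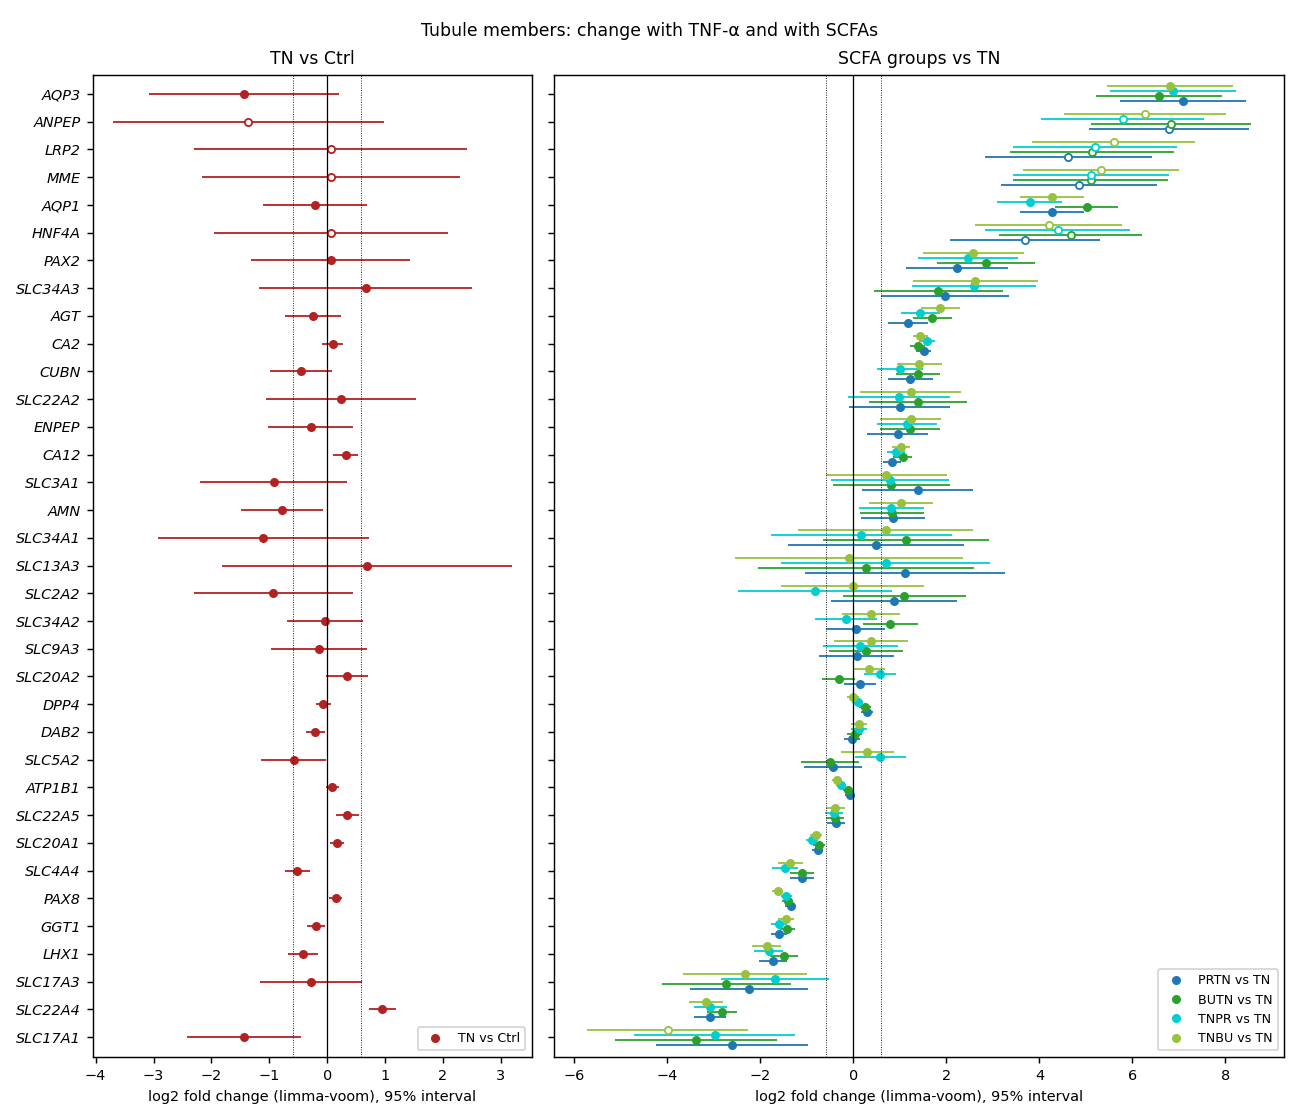
The log2 fold change of each tested member (points) with its 95% interval (lines) from limma-voom is plotted for TN against Ctrl (left) and for the 4 SCFA groups against TN (right), with dotted lines at a fold change of 1.5 and open points where 1 of the groups had 0 counts. SLC22A4 is the member called in TN against Ctrl, whereas 14 members were called higher and 8 lower in all 4 SCFA groups. All 4 were compared with the same TN libraries, and the share of all tested genes called in all 4 was not computed.

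The sequence upstream of the RefSeq start site is shown for 4 members that the results turn on, the pair of water channels that rose from near the floor and the pair PAX8 and SLC22A4 that fell. Each line gives the 250 bases before the start (GRCh38.p14, 5′ to 3′ on the strand of the gene), with GC boxes (GGGCGG, or CCGCCC where the box lies on the other strand) in capitals.
AQP1: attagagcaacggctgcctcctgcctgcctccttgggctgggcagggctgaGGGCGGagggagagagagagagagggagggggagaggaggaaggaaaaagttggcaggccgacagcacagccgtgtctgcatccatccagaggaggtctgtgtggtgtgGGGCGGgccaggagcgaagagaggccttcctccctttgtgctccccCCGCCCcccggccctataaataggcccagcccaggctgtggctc
AQP3: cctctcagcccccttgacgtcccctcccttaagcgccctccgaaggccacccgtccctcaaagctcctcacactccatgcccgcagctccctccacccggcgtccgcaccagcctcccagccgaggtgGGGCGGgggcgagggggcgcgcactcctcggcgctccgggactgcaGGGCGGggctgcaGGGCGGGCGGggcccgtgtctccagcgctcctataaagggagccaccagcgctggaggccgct
PAX8: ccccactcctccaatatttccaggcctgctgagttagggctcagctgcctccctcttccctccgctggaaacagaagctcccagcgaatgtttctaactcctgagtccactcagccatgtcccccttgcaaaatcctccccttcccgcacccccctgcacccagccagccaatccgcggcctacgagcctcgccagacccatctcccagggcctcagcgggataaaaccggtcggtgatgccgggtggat
SLC22A4: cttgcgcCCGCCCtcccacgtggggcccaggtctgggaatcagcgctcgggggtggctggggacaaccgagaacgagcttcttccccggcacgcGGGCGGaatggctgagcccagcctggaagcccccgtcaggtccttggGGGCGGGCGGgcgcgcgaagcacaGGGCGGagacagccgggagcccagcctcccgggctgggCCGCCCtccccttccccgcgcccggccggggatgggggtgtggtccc
These windows lie at chr7:30911603-30911852 (plus strand), chr9:33447594-33447843 (minus strand), chr2:113278922-113279171 (minus strand) and chr5:132294144-132294393 (plus strand). With overlapping matches counted separately, they held 3, 4, 0 and 6 GC boxes, so that boxes were found upstream of risers and of a member that fell. A window was found for 34 of the 41 members (not for SLC20A2, SLC22A8, SLC47A1, SLC3A1, SLC13A3, LHX1 and CA2). A GC box on either strand was in 18 of these 34 and in 42.6% of all 35116 windows, in 8 of 13 members higher in all 4 comparisons and in 2 of 7 members lower in all 4. TATAAA was in 7 of the 34 windows and in 10.7% of all. A match describes the letters in the window and no more.

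Of the 7 water channel, acid-base and sodium genes, 4 were called higher and 1 lower in each SCFA group. Over all tested genes, 23.1% to 25.0% were called higher and 14.8% to 16.9% lower. AQP1 (ENSG00000240583.11, chr7:30911853-30925517, plus strand) encodes the water channel of the proximal tubule and thin descending limb, and its levels were 0.721 and 0.358 CPM (Ctrl), 0.447 and 0.431 (TN), 8.42 and 9.16 (PRTN), 14.5 and 15.1 (BUTN), 6.63 and 5.98 (TNPR) and 8.34 and 9.36 (TNBU). All 8 SCFA libraries lay above the 4 others, with BUTN the highest. Log2 fold changes against TN were 4.27 ± 0.31 (PRTN), 5.02 ± 0.31 (BUTN), 3.79 ± 0.32 (TNPR) and 4.28 ± 0.32 (TNBU) (± SE), with adjusted p of at most 5.56e-07. Its exons overlap by 27.9% with those of a read-through gene on the same strand, listed at 0 in all 12 libraries.

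AQP3 (ENSG00000165272.14, chr9:33441156-33447596, minus strand), the basolateral water and glycerol channel of the collecting duct, was at 0.172 and 0.179 CPM (Ctrl), 0.0372 and 0.0718 (TN), 10.0 and 9.16 (PRTN), 6.66 and 6.76 (BUTN), 8.83 and 7.80 (TNPR) and 7.04 and 8.96 (TNBU). The TN libraries held 1 and 2 counts, and none of the SCFA libraries overlapped with Ctrl or TN. From the counts, the ratio to TN was 175 in PRTN (exact 95% counting interval 59.7 to 852), 122 in BUTN (41.6 to 596), 152 in TNPR (51.7 to 739) and 146 in TNBU (49.8 to 712). These intervals cover counting error only.

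CA2, the cytosolic carbonic anhydrase, was the most abundant member per length in BUTN, at 48.2 ± 0.672 CPM per kb (SD, n = 2). Its libraries stood at 34.9 and 34.4 CPM (Ctrl), 36.5 and 37.6 (TN), 103 and 108 (PRTN), 95.8 and 97.7 (BUTN), 106 and 116 (TNPR) and 94.7 and 107 (TNBU). Ctrl and TN lay close together and all SCFA libraries were above them. The log2 fold changes of CA2 were 1.51 ± 0.076 (PRTN), 1.38 ± 0.076 (BUTN), 1.58 ± 0.076 (TNPR) and 1.44 ± 0.077 (TNBU), with adjusted p up to 2.39e-08. CA12, a carbonic anhydrase anchored in the plasma membrane, was at 20.1 and 16.7 CPM (Ctrl), 22.9 and 22.7 (TN), 39.5 and 41.9 (PRTN), 49.1 and 46.0 (BUTN), 40.9 and 45.4 (TNPR) and 45.3 and 47.3 (TNBU), again without overlap between the SCFA groups and TN. Its changes were smaller, at 0.84 ± 0.091 (PRTN), 1.06 ± 0.091 (BUTN), 0.91 ± 0.091 (TNPR) and 1.02 ± 0.092 (TNBU), with an adjusted p of at most 6.19e-06.

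SLC4A4 encodes the basolateral sodium bicarbonate cotransporter that works together with carbonic anhydrase, and it moved the other way. The libraries read 20.5 and 21.5 CPM (Ctrl), 15.3 and 14.0 (TN), 6.75 and 6.84 (PRTN), 6.54 and 7.02 (BUTN), 5.51 and 4.99 (TNPR) and 6.59 and 5.01 (TNBU), so that TN lay under Ctrl and every SCFA library lay under TN. Log2 fold changes against TN were -1.11 ± 0.12 (PRTN), -1.11 ± 0.12 (BUTN), -1.48 ± 0.13 (TNPR) and -1.35 ± 0.13 (TNBU), with an adjusted p of at most 5.8e-06. ATP1B1, the beta subunit of the sodium pump, stood at 438 and 434 CPM (Ctrl), 458 and 471 (TN), 443 and 443 (PRTN), 419 and 436 (BUTN), 391 and 377 (TNPR) and 370.0 and 355 (TNBU), and its log2 fold changes of -0.068 ± 0.048 (PRTN), -0.12 ± 0.048 (BUTN), -0.27 ± 0.048 (TNPR) and -0.36 ± 0.049 (TNBU) stayed within a fold change of 1.5. SLC9A3, the apical sodium-proton exchanger, ranged from 0.442 to 0.824 CPM over the 12 libraries without a call, and 41.1% of its exon bases are shared with another gene on the same strand.

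**Figure D2:**
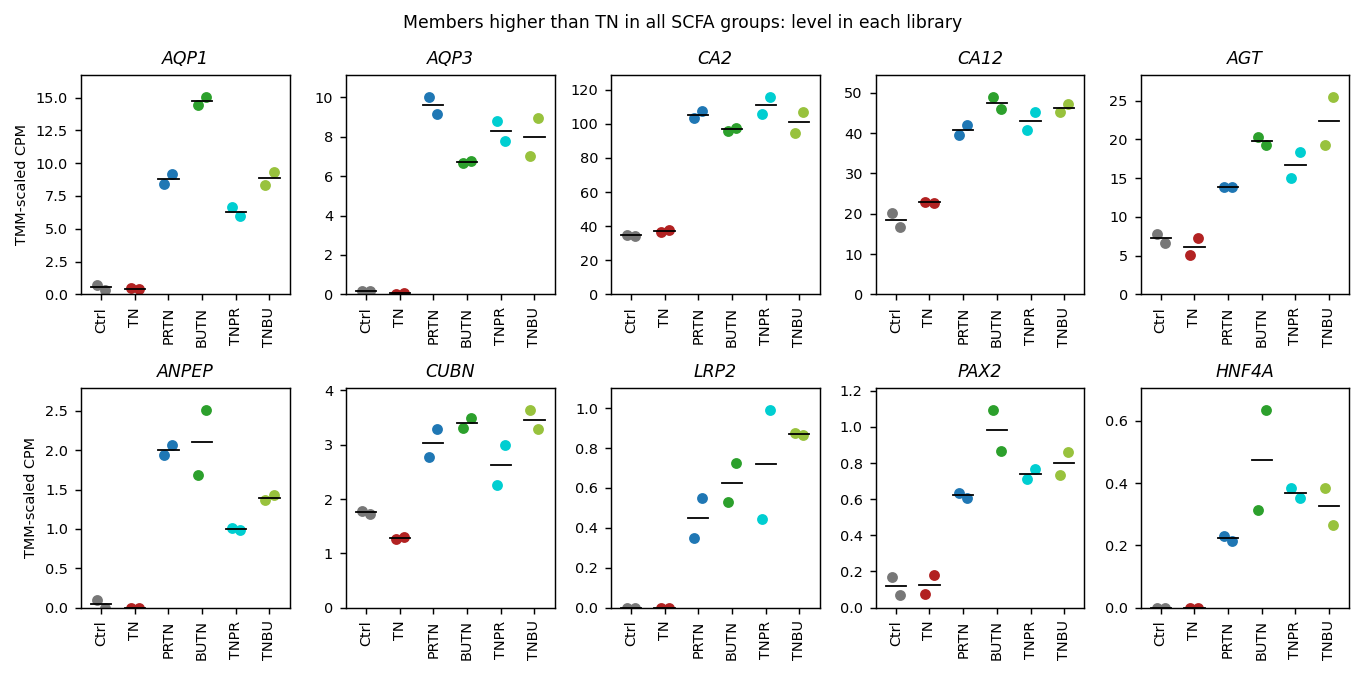
TMM-scaled CPM (linear axis from 0, 1 scale per panel) is plotted for 10 members that were called higher than TN in all 4 SCFA groups, with 1 point per library and a line at the mean of the 2 libraries of each group. LRP2 and HNF4A lie at 0 in Ctrl and TN and under 1 CPM elsewhere, while CA2 runs from at most 37.6 CPM in Ctrl and TN to at least 94.7 CPM in each SCFA library.

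Of the 4 endocytosis genes, 3 were called higher and 0 lower in each SCFA group. Among all tested genes these shares were 23.1% to 25.0% and 14.8% to 16.9%. Of the 3, LRP2 passed the filter through the SCFA groups alone, and AMN lost calls when single libraries were left out. LRP2 (ENSG00000081479.12, chr2:169127109-169362534, minus strand) had 0 counts in the Ctrl and TN libraries and 0.347 and 0.548 CPM (PRTN), 0.532 and 0.722 (BUTN), 0.444 and 0.991 (TNPR) and 0.876 and 0.863 (TNBU). Against 3 counts per library in TN, it was at least 4.08-fold higher in PRTN, 5.72-fold in BUTN, 6.54-fold in TNPR and 7.93-fold in TNBU. CUBN, which encodes cubilin, was already detected in untreated cells, with 1.79 and 1.72 CPM (Ctrl), 1.27 and 1.29 (TN), 2.78 and 3.29 (PRTN), 3.32 and 3.50 (BUTN), 2.25 and 3.00 (TNPR) and 3.64 and 3.29 (TNBU). Each SCFA library exceeded all Ctrl and TN libraries, and log2 fold changes against TN were 1.22 ± 0.22 (PRTN), 1.40 ± 0.22 (BUTN), 1.00 ± 0.23 (TNPR) and 1.42 ± 0.22 (TNBU), with an adjusted p of at most 0.00201.

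AMN encodes amnionless, the membrane partner of cubilin, and read 2.29 and 3.49 CPM (Ctrl), 1.16 and 2.28 (TN), 2.73 and 3.21 (PRTN), 3.49 and 2.50 (BUTN), 2.95 and 2.83 (TNPR) and 2.95 and 3.73 (TNBU). The 2 TN libraries were far apart, the Ctrl libraries reached the SCFA range, and 17.7% of its exon bases lie opposite CDC42BPB. The log2 fold changes against TN were 0.85 ± 0.32 (PRTN), 0.84 ± 0.32 (BUTN), 0.81 ± 0.32 (TNPR) and 1.02 ± 0.32 (TNBU), with an adjusted p of at most 0.0446. Without TN replicate 1 the values were 0.34, 0.33, 0.31 and 0.53, and no call was left. The AMN call was also lost in PRTN without either PRTN or either TNPR library (0.70 to 0.93), in BUTN without BUTN replicate 1 or any PRTN or TNPR library (0.58 to 0.82), in TNPR without any one of the 8 SCFA libraries (0.74 to 0.78) and in TNBU without TNBU replicate 2 (0.82). DESeq2 called AMN in TNBU alone of the 4, and edgeR did not call it in TNPR (0.73). DAB2, the clathrin adaptor of these receptors, was at 32.6 and 34.0 CPM (Ctrl), 29.5 and 28.2 (TN), 27.9 and 28.5 (PRTN), 29.9 and 28.9 (BUTN), 29.5 and 33.4 (TNPR) and 31.0 and 31.6 (TNBU) and its log2 fold changes of -0.032 ± 0.076 (PRTN), 0.028 ± 0.076 (BUTN), 0.12 ± 0.076 (TNPR) and 0.12 ± 0.077 (TNBU) were not called.

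Of the 6 brush border and angiotensin genes, 4 were called higher and 1 lower in each SCFA group. Among the 4, ANPEP and MME had 0 counts in TN and passed the filter through the SCFA groups alone or nearly so. The shares of all tested genes were 23.1% to 25.0% higher and 14.8% to 16.9% lower. The most abundant enzyme that was called fell and the weakly expressed ones rose. GGT1 (ENSG00000100031.18, chr22:24594811-24629005, plus strand), the gamma-glutamyltransferase that starts glutathione breakdown at the brush border, was at 221 and 220.4 CPM (Ctrl), 179 and 208 (TN), 64.3 and 63.8 (PRTN), 74.0 and 70.9 (BUTN), 67.8 and 60.0 (TNPR) and 71.9 and 69.7 (TNBU). Its TN libraries overlapped with none of the SCFA libraries, of which the highest was at 74.0 CPM. Its log2 fold changes against TN were -1.59 ± 0.078 (PRTN), -1.42 ± 0.077 (BUTN), -1.60 ± 0.078 (TNPR) and -1.45 ± 0.078 (TNBU), with an adjusted p of at most 2.18e-08. In the reference annotation 56.5% of its exon bases are shared with a read-through gene for which no value was used here, and GGT1 has near-identical copies, so its count is uncertain to that extent. The copies GGT2, GGTLC1 and GGTLC2 reached at most 0.156 CPM as a group mean.

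ANPEP, aminopeptidase N, had 0 counts in TN and 0.103 and 0 CPM in Ctrl. With SCFA it read 1.94 and 2.07 CPM (PRTN), 1.69 and 2.51 (BUTN), 1.01 and 0.991 (TNPR) and 1.37 and 1.43 (TNBU), above every Ctrl and TN library. That is at least 18.3-fold higher than 3 counts per library in PRTN, 19.2-fold in BUTN, 9.11-fold in TNPR and 12.7-fold in TNBU. MME, which encodes neprilysin, also rose from 0 counts in Ctrl and TN to between 0.415 and 0.927 CPM, at least 4.71-fold, 5.64-fold, 6.12-fold and 6.52-fold higher in PRTN, BUTN, TNPR and TNBU.

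ENPEP, aminopeptidase A, cleaves angiotensin peptides, and its levels were 1.41 and 0.844 CPM (Ctrl), 1.12 and 0.718 (TN), 1.62 and 1.89 (PRTN), 2.16 and 2.04 (BUTN), 2.28 and 1.76 (TNPR) and 2.28 and 1.99 (TNBU). All SCFA libraries were above Ctrl and TN, but the rise (log2 fold changes of 0.95 ± 0.30 (PRTN), 1.21 ± 0.30 (BUTN), 1.15 ± 0.30 (TNPR) and 1.23 ± 0.30 (TNBU), adjusted p at most 0.0172) lost its call in all 4 comparisons without TN replicate 2, at 0.60, 0.87, 0.81 and 0.90. In PRTN it was also lost with DESeq2 and without PRTN replicate 2 (0.81). AGT encodes angiotensinogen, the substrate of renin, and stood at 7.83 and 6.63 CPM (Ctrl), 5.06 and 7.25 (TN), 13.8 and 13.8 (PRTN), 20.2 and 19.2 (BUTN), 15.0 and 18.3 (TNPR) and 19.2 and 25.5 (TNBU). All SCFA libraries were above Ctrl and TN, with log2 fold changes of 1.18 ± 0.20 (PRTN), 1.70 ± 0.19 (BUTN), 1.44 ± 0.19 (TNPR) and 1.87 ± 0.19 (TNBU), with an adjusted p of at most 0.000224. DPP4, dipeptidyl peptidase-4, was at 95.2 and 89.6 CPM (Ctrl), 89.7 and 86.8 (TN), 108 and 109 (PRTN), 106 and 105 (BUTN), 93.7 and 94.2 (TNPR) and 90.5 and 84.9 (TNBU), and its log2 fold changes of 0.30 ± 0.058 (PRTN), 0.25 ± 0.058 (BUTN), 0.09 ± 0.059 (TNPR) and -0.0098 ± 0.059 (TNBU) were under the fold threshold.

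Of the 4 tubule transcription factors, 2 were called higher and 2 lower in each SCFA group. Of the 2 called higher, HNF4A had 0 counts in Ctrl and TN and passed the filter through the SCFA groups alone. All tested genes stood at 23.1% to 25.0% higher and 14.8% to 16.9% lower. PAX8 (ENSG00000125618.16, chr2:113215997-113278921, minus strand), a paired-box factor of the nephric lineage, was the member with the second highest level per length in Ctrl. Its libraries read 362 and 366 CPM (Ctrl), 392 and 414 (TN), 156 and 160.1 (PRTN), 155 and 148 (BUTN), 152 and 145 (TNPR) and 128 and 134 (TNBU). Every SCFA library was under the 4 Ctrl and TN libraries, and log2 fold changes were -1.35 ± 0.054 (PRTN), -1.41 ± 0.055 (BUTN), -1.44 ± 0.055 (TNPR) and -1.62 ± 0.055 (TNBU), with an adjusted p of at most 1.62e-09. On the opposite strand, PAX8-AS1 covers 22.4% of the PAX8 exon bases and was called lower in the same 4 comparisons, from 35.4 ± 2.05 CPM in TN to 15.3 ± 1.05 CPM in BUTN (SD, n = 2). The kit was stranded, but the strand setting of the counting is not given in the sources used here.

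LHX1, a LIM homeobox factor of early nephron formation, was at 68.5 and 64.5 CPM (Ctrl), 48.9 and 50.2 (TN), 14.4 and 15.6 (PRTN), 17.2 and 18.0 (BUTN), 17.2 and 11.4 (TNPR) and 15.4 and 12.1 (TNBU). Ctrl lay above TN and TN above all SCFA libraries, with log2 fold changes against TN of -1.72 ± 0.14 (PRTN), -1.50 ± 0.14 (BUTN), -1.82 ± 0.14 (TNPR) and -1.87 ± 0.15 (TNBU), with an adjusted p of at most 1.49e-06. PAX2, the paralogue of PAX8, rose instead, from 0.0745 and 0.180 CPM in TN to 0.637 and 0.608 CPM (PRTN), 1.10 and 0.867 (BUTN), 0.711 and 0.768 (TNPR) and 0.736 and 0.863 (TNBU). No SCFA library overlapped with Ctrl or TN, and the log2 fold changes were 2.23 ± 0.50 (PRTN), 2.86 ± 0.49 (BUTN), 2.47 ± 0.50 (TNPR) and 2.58 ± 0.50 (TNBU), with an adjusted p of at most 0.00214. These levels stayed low beside those of PAX8: in BUTN, PAX2 reached 0.149 ± 0.0245 CPM per kb and PAX8 20.5 ± 0.637 CPM per kb. HNF4A (ENSG00000101076.16, chr20:44355699-44432845, plus strand) went from 0 counts in Ctrl and TN to 0.232 and 0.213 CPM (PRTN), 0.313 and 0.636 (BUTN), 0.385 and 0.352 (TNPR) and 0.385 and 0.266 (TNBU), which is at least 2.03-fold, 4.32-fold, 3.36-fold and 2.97-fold higher than 3 counts per library.

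**Figure D3:**
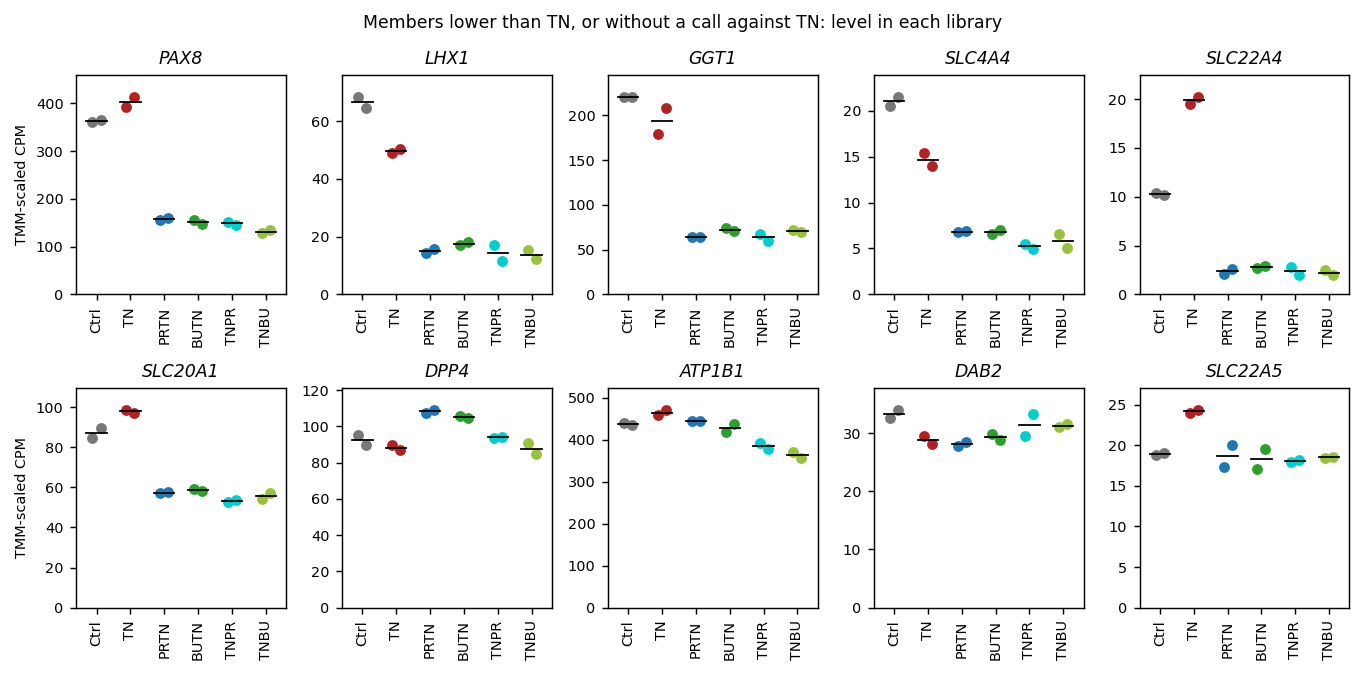
TMM-scaled CPM (linear axis from 0, 1 scale per panel) is plotted for 6 members called lower than TN in all 4 SCFA groups and for 4 abundant members without a call against TN, with 1 point per library and a line at the mean of the 2 libraries of each group. PAX8, LHX1, GGT1, SLC4A4, SLC22A4 and SLC20A1 lie lower in every SCFA library than in any Ctrl or TN library, while DPP4, ATP1B1, DAB2 and SLC22A5 stay within a fold change of 1.5 from TN.

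Of the 6 tested organic ion and carnitine transporters, 3 were called lower in each SCFA group, beside 14.8% to 16.9% of all tested genes. SLC22A4 (ENSG00000197208.5, chr5:132294394-132344190, plus strand) carries ergothioneine and organic cations, and it read 10.4 and 10.1 CPM (Ctrl), 19.5 and 20.3 (TN), 2.10 and 2.59 (PRTN), 2.71 and 2.86 (BUTN), 2.76 and 1.97 (TNPR) and 2.47 and 1.98 (TNBU). The groups were ordered without overlap, with TN the highest, Ctrl next and all SCFA libraries under 3 CPM. Against TN the log2 fold changes were -3.09 ± 0.16 (PRTN), -2.83 ± 0.15 (BUTN), -3.07 ± 0.16 (TNPR) and -3.16 ± 0.17 (TNBU), with an adjusted p of at most 1.65e-08. Its neighbour SLC22A5, the sodium-dependent carnitine transporter, was at 18.8 and 19.1 CPM (Ctrl), 24.0 and 24.4 (TN), 17.3 and 20.0 (PRTN), 17.1 and 19.5 (BUTN), 18.0 and 18.1 (TNPR) and 18.4 and 18.6 (TNBU). TN was again above the other 5 groups, but the log2 fold changes of -0.38 ± 0.088 (PRTN), -0.40 ± 0.089 (BUTN), -0.42 ± 0.089 (TNPR) and -0.39 ± 0.09 (TNBU), with an adjusted p of at most 0.00277, were under the fold threshold.

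SLC17A1 and SLC17A3, apical organic anion and urate transporters whose genes lie on chromosome 6, were rare transcripts that fell. SLC17A1 had 0.584 and 0.896 CPM in Ctrl and 0.223 and 0.287 CPM in TN, and at most 0.0592 CPM in an SCFA library. The counts of SLC17A1 gave ratios of TN to PRTN of 8.63 (exact 95% counting interval 1.98 to 78.2), to BUTN of 17.0 (2.59 to 720.3) and to TNPR of 8.32 (1.91 to 75.4), and TN was at least 2.49-fold higher than TNBU, which had 0 counts. SLC17A3 went from 0.521 and 0.467 CPM in TN to 0.136 and 0.0608 CPM (PRTN), 0.125 and 0.0289 (BUTN), 0.207 and 0.0959 (TNPR) and 0.0701 and 0.0996 (TNBU). The groups did not overlap with TN, and the log2 fold changes were -2.25 ± 0.58 (PRTN), -2.73 ± 0.63 (BUTN), -1.68 ± 0.53 (TNPR) and -2.34 ± 0.61 (TNBU), with an adjusted p of at most 0.0166. In TNPR it lost its call without TN replicate 1 (-1.63, adjusted p = 0.0529, limma-voom) or TNPR replicate 2 (-1.26, adjusted p = 0.105), and SLC17A1 in TNPR lost it without TNPR replicate 2 (-1.94) and in PRTN without replicate 1 (-2.61) or replicate 2 (-2.68). DESeq2 did not call SLC17A1 in PRTN, BUTN or TNPR (adjusted p of 0.0898, 0.0578 and 0.0918), nor SLC17A3 in PRTN or TNPR (0.0636 and 0.154).

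SLC22A2, the basolateral organic cation transporter, was called higher in BUTN, at 1.39 ± 0.48 on the log2 scale (adjusted p = 0.027, limma-voom). Its TN libraries were at 0.633 and 0.180 CPM and its BUTN libraries at 0.720 and 1.16 CPM, and the call was lost without TN replicate 2 (0.49) or BUTN replicate 2 (1.04), with DESeq2 (1.23) and with only the groups compared (1.39). Without TN replicate 1, SLC22A2 was called higher in PRTN (1.82), TNPR (1.81) and TNBU (2.06) as well, and in TNBU it was also called with relative log expression size factors (1.25), library size alone (1.43) and the geometric mean without an added count (1.24). The difference of SLC22A2 between PRTN and BUTN was not called (-0.39, adjusted p = 0.702). SLC13A3, a dicarboxylate transporter, stayed between 0 and 0.108 CPM.

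Sodium-phosphate cotransporters, which reclaim filtered phosphate or supply the cell with it, had no common direction. Of the 5, 1 was called lower and 1 to 2 higher, beside 14.8% to 16.9% and 23.1% to 25.0% of all tested genes. SLC20A1, the widely expressed type III transporter, was at 84.5 and 89.5 CPM (Ctrl), 98.7 and 97.1 (TN), 57.3 and 57.5 (PRTN), 59.0 and 58.1 (BUTN), 52.5 and 53.6 (TNPR) and 54.3 and 57.3 (TNBU). It was lower in every SCFA library than in any Ctrl or TN library, with log2 fold changes against TN of -0.77 ± 0.058 (PRTN), -0.74 ± 0.058 (BUTN), -0.88 ± 0.059 (TNPR) and -0.81 ± 0.059 (TNBU) and an adjusted p of at most 4.06e-07. SLC20A2, its close relative, read 27.5 and 33.7 CPM (Ctrl), 37.2 and 39.7 (TN), 42.6 and 42.0 (PRTN), 30.9 and 31.0 (BUTN), 47.4 and 69.3 (TNPR) and 43.5 and 53.5 (TNBU), and the 2 TNPR libraries stood far apart. Its log2 fold changes were 0.14 ± 0.16 (PRTN), -0.32 ± 0.16 (BUTN), 0.57 ± 0.16 (TNPR) and 0.33 ± 0.16 (TNBU). In TNPR that is under the fold threshold, and it was called by edgeR (0.60) and DESeq2 (0.60) on the same libraries, with scaling to library size alone (0.75), and without TNPR replicate 1 (0.81) or TN replicate 2 (0.59).

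SLC34A2, the type II transporter of lung and intestine, was at 0.618 and 0.610 CPM (Ctrl), 0.521 and 0.682 (TN), 0.637 and 0.608 (PRTN), 1.03 and 1.07 (BUTN), 0.592 and 0.480 (TNPR) and 0.841 and 0.730 (TNBU). The BUTN libraries were the highest, and both TNBU libraries also lay above every Ctrl, TN, PRTN and TNPR library. BUTN was called against TN (0.79 ± 0.27, adjusted p = 0.0251, limma-voom) and TNBU was not. The BUTN call was lost with DESeq2 and without TN replicate 1 (0.58) or either BUTN replicate (0.79 and 0.75). SLC34A3, a renal type II transporter, was called higher in all 4 groups at low level, from 0.112 and 0.0718 CPM in TN to 0.492 and 0.335 CPM (PRTN), 0.532 and 0.260 (BUTN), 0.829 and 0.480 (TNPR) and 0.631 and 0.664 (TNBU). Its log2 fold changes ran from 1.83 ± 0.64 (BUTN) to 2.62 ± 0.62 (TNBU), with an adjusted p of at most 0.0277. In PRTN and BUTN the SLC34A3 call was lost with DESeq2, without either TN replicate (1.67 to 2.21 in PRTN, 1.53 to 2.07 in BUTN on the log2 scale) and without replicate 1 of the SCFA group (1.67 and 1.32).

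Glucose and amino acid carriers gave few calls. SLC5A2, the sodium-glucose cotransporter of the early proximal tubule, was at 3.81 and 3.09 CPM (Ctrl), 2.25 and 2.34 (TN), 2.32 and 1.22 (PRTN), 1.46 and 1.79 (BUTN), 3.93 and 3.00 (TNPR) and 2.90 and 2.77 (TNBU), where PRTN and BUTN included the lowest and TNPR the highest SCFA libraries. Its log2 fold changes against TN were -0.44 ± 0.29 (PRTN), -0.50 ± 0.29 (BUTN), 0.58 ± 0.25 (TNPR) and 0.30 ± 0.26 (TNBU), none of them called, and 40.7% of its exon bases lie opposite neighbouring genes. Without PRTN replicate 1 it was called lower in PRTN (-0.94), and without TNPR replicate 2 it was called higher in TNPR (0.71), as with library size alone (0.76) and the replicate block (0.59). SLC2A2, the basolateral glucose carrier, ranged from 0.0296 to 0.501 CPM without a call.

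SLC3A1, the heavy chain of the cystine carrier, was at 1.26 and 0.413 CPM (Ctrl), 0.492 and 0.287 (TN), 1.19 and 0.847 (PRTN), 0.856 and 0.546 (BUTN), 0.911 and 0.470 (TNPR) and 0.603 and 0.651 (TNBU), with the 2 Ctrl libraries at the top and near the bottom of the whole range. It was called higher in PRTN (1.38 ± 0.55, adjusted p = 0.048, limma-voom). That call was lost under 10 of the 21 alternatives, among them DESeq2 and leaving out TN replicate 2 (0.97), TN replicate 1 (1.72), PRTN replicate 1 (1.10) or any one of the BUTN and TNBU libraries (1.35 each). PREPL covers 29.4% of its exon bases on the opposite strand and rose from 52.0 ± 2.04 CPM in TN to 86.8 ± 1.11 CPM in PRTN (SD, n = 2), a called change.

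TNF-α alone gave few calls among these genes, although with 2 libraries a group a missing call does not show a lack of change. Of the 35 tested members, 1 was called higher and 0 lower in TN than in Ctrl by limma-voom, where 0.764% and 0.534% of all tested genes were called. In the same test, 12 of the 35 passed an unadjusted p under 0.05 in either direction, beside 17% of all tested genes. The members were chosen with earlier results of these data known, so these shares are no test of the set. edgeR and DESeq2 gave the same counts of called members as limma-voom. DESeq2 gave no adjusted p for part of the members, SLC17A1 and PAX2 among them, so it could not call these. Over all genes the split was 186 higher and 130 lower, and 144 and 181 with scaling to library size alone, where the call of the member stood. SLC22A4 was that member, with 10.4 and 10.1 CPM in Ctrl and 19.5 and 20.3 CPM in TN, a log2 fold change of 0.95 ± 0.11 (adjusted p = 0.000406). SLC4A4 was the other member with an adjusted p under 0.05, at -0.52 ± 0.10 (adjusted p = 0.0123), and it missed a fold of 1.5. Over the tested members the median change was -0.14 (-0.066 with genes at 0 counts set to their bounds), against -0.0089 over all tested genes.

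Propionate at 15 mM and butyrate at 3 mM were compared at each time of addition. Before TNF-α, 0 members were called higher and 1 lower in PRTN than in BUTN by limma-voom, beside 0.0411% and 0.127% of all genes. This member was AQP1, with 8.42 and 9.16 CPM in PRTN and 14.5 and 15.1 CPM in BUTN, a log2 difference of -0.75 (95% interval -0.98 to -0.52, adjusted p = 0.0175). The libraries of the 2 groups did not overlap, but the call was lost when any one of these 4 libraries was left out (-0.83 to -0.70, adjusted p of 0.0844 to 0.276). Added after TNF-α, 0 members were called higher or lower in TNPR than in TNBU, beside 0% and 0.00822% of all genes, and edgeR and DESeq2 also called 0. DESeq2 gave no adjusted p for many members here, CUBN, AMN, ANPEP and ENPEP among them, so it could not call these. An unadjusted p under 0.05 was found for 4 of the 35 members and 8.61% of all genes. Replicates stood further apart in these groups, with a chi-square per gene of 15.2 (TNPR) and 18.1 (TNBU) against 3.17 to 6.61 in the others, and the mitochondrial share of counts was 9.46% in TNPR replicate 1 and 5.86% in TNBU replicate 1 against 7.19% to 8.46% in the other 10 libraries. The part of either in the comparisons of TNPR and TNBU was not tested. AQP1 was at -0.49 between TNPR and TNBU (95% interval -0.77 to -0.21). For abundant members the intervals between PRTN and BUTN were narrow, at -0.06 to 0.19 for PAX8, -0.35 to 0.00054 for GGT1 and -0.025 to 0.27 for CA2, whereas for HNF4A the interval was -1.91 to -0.042.

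The time of addition was compared for each SCFA, and the time since TNF-α differed along with it. TNPR against PRTN gave 0 called members in either direction by limma-voom, edgeR and DESeq2, beside 0.0534% and 0.107% of all genes, and 8 of the 35 members and 11.2% of all genes passed an unadjusted p under 0.05. DESeq2 gave no adjusted p for part of the members here, LRP2, ANPEP, MME and HNF4A among them, so it could not call these. Leaving out TNPR replicate 1 called SLC20A2 higher (0.70). TNBU against BUTN gave 0 higher and 1 lower by limma-voom, beside 0.0945% and 0.173% of all genes. That member was again AQP1, from 14.5 and 15.1 CPM in BUTN to 8.34 and 9.36 CPM in TNBU, a log2 difference of -0.74 (95% interval -0.98 to -0.50, adjusted p = 0.0117). The AQP1 call was lost without BUTN replicate 1 (-0.78) or BUTN replicate 2 (-0.72). Both AQP1 calls share the BUTN libraries. SLC20A2 was not called in the main test (0.64, adjusted p = 0.0905), and it was called higher by DESeq2 (0.64), with the replicate block (0.65) and without either TNPR replicate (0.63 each) or TNBU replicate 1 (0.77).

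Other tubule genes, in lists that do not repeat the members, also moved in both directions. These lists too were chosen with earlier results of these data known. In the 4 comparisons with TN, 23.1% to 25.0% of all tested genes were called higher and 14.8% to 16.9% lower. Of 43 tested genes among 56 further proximal tubule genes, 21 to 22 were called higher and 11 to 12 lower than TN in the 4 SCFA groups. CA4, the membrane carbonic anhydrase of the proximal tubule, rose from 0 counts in TN to 2.81 ± 0.447 CPM in PRTN and 2.61 ± 0.0659 CPM in BUTN. VIL1, the microvillus protein villin, and DPEP1, a brush border dipeptidase, rose as well. PDZK1IP1 and the brush border scaffold PDZK1 fell, PDZK1 from 119 ± 3.65 CPM (TN) to 38.6 ± 1.70 (PRTN) and 31.1 ± 0.337 (TNPR) (SD, n = 2). Genes of more distal segments were called as well: of 25 tested among 40 listed for the loop of Henle, distal nephron and collecting duct, 13 to 15 were higher and 1 to 2 lower. TFCP2L1, a transcription factor of the collecting duct, and KCNJ10, a potassium channel, rose, TFCP2L1 from 0.239 ± 0.0837 CPM (TN) to 10.3 ± 0.00500 (PRTN) and 10.7 ± 0.378 (BUTN). KCNJ16 fell in all 4 groups and AVPR2 in 3 of them.

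Among 24 tested of 30 other transcription factors of kidney development, 12 to 15 were called higher and 4 to 5 lower. The shares over all tested genes were 23.1% to 25.0% and 14.8% to 16.9%. HNF4G, a paralogue of HNF4A, fell from 6.62 ± 0.119 CPM (TN) to 0.802 ± 0.0700 (PRTN) and 1.25 ± 0.312 (BUTN) and HOXD11 from 9.15 ± 0.160 CPM (TN) to 2.76 ± 0.144 (PRTN). TFCP2L1, HEYL and GATA3 of that list rose.

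**Figure D4:**
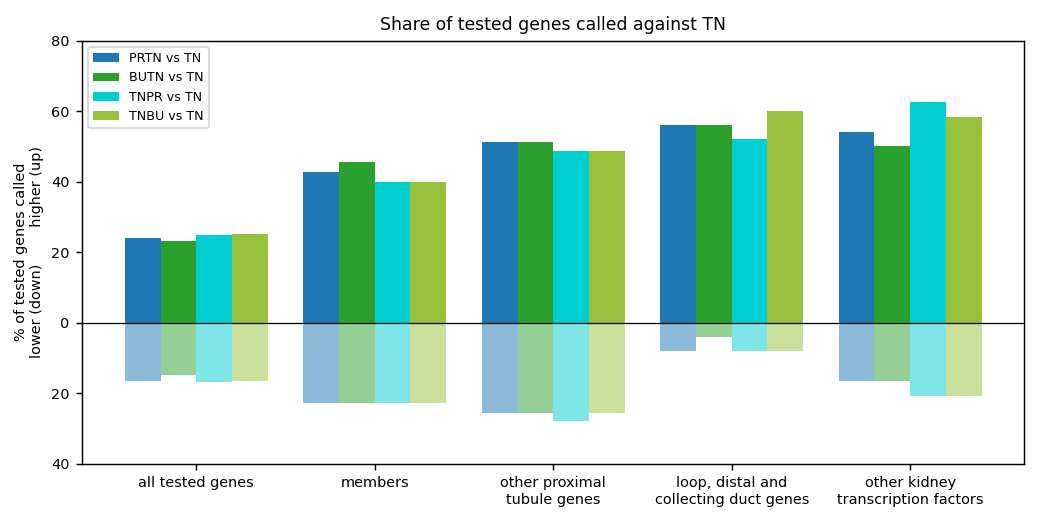
The share of tested genes called higher (bars upward) and lower (pale bars downward) than TN, in percent, is plotted for all tested genes, for the 35 tested members and for 3 other kidney lists, with 1 bar per SCFA group. The members stand at 40% to 45.7% higher and 22.9% lower, and all tested genes at 23.1% to 25.0% higher and 14.8% to 16.9% lower. The lists were chosen with earlier results of these data known, so differences from all tested genes are not a test of the lists.

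Markers of other cell types and of epithelium in general moved with the SCFA groups too. Their counts stand beside 23.1% to 25.0% of all tested genes called higher and 14.8% to 16.9% called lower. Of 12 epithelial markers, 5 to 6 were called higher and 5 lower in each SCFA group, among them CDH6, a cadherin of proximal tubule cells, which fell from 749.9 ± 7.95 CPM (TN) to 53.8 ± 0.296 CPM (PRTN), and CDH1, which rose from 0.109 ± 0.0489 to 13.8 ± 0.677 CPM. The summed level of 6 endothelial markers was 0.149 to 0.287 CPM in TN and 2.29 to 3.87 CPM over the SCFA libraries, with 4 of 4 tested called higher, VWF and TEK at 0 counts in TN and KDR at most 0.0516 CPM as a group mean. Markers at or near 0 counts in TN passed the filter on low counts largely through the SCFA libraries, which limits what their calls can show. Of 5 tested podocyte markers 3 were higher and 0 lower, with the summed level of 6 at 165 to 173 CPM in TN and 134 to 155 CPM in SCFA libraries. Of 5 tested leukocyte markers 2 to 3 were higher and 0 lower, with the sum of 7 at 30.9 to 34.4 CPM in TN and 28.0 to 53.0 CPM in SCFA libraries, and PTPRC and CD3E at 0 counts in TN. Of 7 fibroblast and mural markers 4 to 5 were higher and 2 lower, with sums of 140.1 to 140.3 CPM in TN and 225 to 278 CPM in SCFA libraries, COL1A1 and LUM the largest contributors to the rise. The part of other cell types in the change of the members was not tested.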

How the data were processed

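Gene levels in 12 libraries of HK2 cells were used as deposited. According to the submitters' processing notes and the study's methods, the authors checked reads with FastQC 0.11.5, aligned them to GRCh38 with STAR 2.6.1a and estimated expected counts per gene with RSEM. The strand setting of the counting is not given in the sources used here. Of the deposited expected counts, 19.25% were not whole numbers. Grouping followed the labels of the single libraries (TNF-α and SCFA), although a treatment text that they share names other agents, thapsigargin and JQ1.

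Expected counts were filtered (a geometric mean of at least 1, with 1 added before and taken off after), scaled by TMM in edgeR 4.0.16 and tested with limma-voom (limma 3.58.1, R 4.3.3) with Benjamini-Hochberg adjustment over 24342 genes. TMM, limma-voom and a geometric mean filter are the study's methods, and the added 1 and the single fit over all 6 groups were chosen here. Calls needed an adjusted p under 0.05 and a fold change above 1.5. edgeR's quasi-likelihood test and DESeq2 1.42.0 on rounded counts, other scalings, filters and folds, a replicate block and leaving out each library were alternatives. The fits were tested on simulated data. Depth was 27269986 to 33851130 expected counts a library, so that 3 counts, read as the floor, were 0.0867 to 0.112 CPM. The replicate numbers were not used to pair the samples in the main fit. Deviations of replicates correlated over 0.1 in 1 of 15 pairs of groups (TNPR with TNBU, 0.240), which does not show that the samples were unpaired.

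The members and the other gene lists were chosen with earlier results of these data known. Members with a mean of at least 1 CPM in a group were described in every library and the others by range or by the group they turned on. Of the other lists, up to 3 rises and 3 falls with the largest mean change against TN among called genes reaching 1 CPM were named, apart from some genes that are not reported here. Markers at 0, markers that contributed most to a sum, antisense and overlapping genes were named after their values were seen.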

Additional observations from a re-analysis of the deposited data

Results flagged for a closer look

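AQP1 differed between SCFA groups. With the SCFA added before TNF-α, it was lower with propionate at 15 mM than with butyrate at 3 mM by 0.75 on the log2 scale (PRTN against BUTN, -0.75, limma-voom), while the same comparison after TNF-α gave no call. With butyrate, AQP1 was lower when the SCFA was added after TNF-α than before (TNBU against BUTN, -0.74), and the time since TNF-α differed as well. Both values share the BUTN libraries, each call was lost when either BUTN library was left out, and the difference between the effects was not tested.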

How the results depend on the processing

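Over the 35 tested members, 6439 log2 fold changes were recomputed under the alternatives. Of these, 6337 stayed on their side of the thresholds, 81 lost a call, 21 gained one and 0 called values changed sign, while values that were not called could change sign. Of 198 counts of called members, 183 stayed within 1.5 times the main count. With a fold change over 2 in place of 1.5, the member count fell from 1 to 0 in TN against Ctrl, in PRTN against BUTN and in TNBU against BUTN. Fitting only the groups compared gave 0 in TNBU against BUTN. Leaving out a library gave 0 to 1 called members in PRTN against BUTN, 0 to 1 in TNPR against PRTN and 0 to 2 in TNBU against BUTN. With the replicate block, the count in TNBU against BUTN was 2, as SLC20A2 (0.65) was called beside AQP1. Whether equal replicate numbers mark samples handled together is not known here, and correlations of deviations ran from -0.0791 to 0.240. Over all genes, TN against Ctrl gave 79 higher and 12 lower when only these groups were fitted and 67 and 40 at a fold over 2, in place of 186 and 130. DESeq2 dropped 6 (PRTN), 5 (BUTN), 3 (TNPR) and 0 (TNBU) member calls. It gave no adjusted p for AQP1 in TNBU against BUTN, nor for some other members in each comparison. The cause was not tested. A filter on the geometric mean without the added 1 tested 28 members and could not include genes with a library at 0. With 2 libraries a group, members under 1 CPM had the widest intervals.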
